A study of Mus musculus with 480 samples.

Results

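The 10 genes described here are transcripts that cells switch on within minutes of a stimulus or a shock: the immediate early genes Fos, Fosb, Jun, Junb, Egr1, Atf3, Ier2 and Ier5, and the heat-inducible chaperone genes Hspa1a and Hspa1b. They were chosen by name. All 10 were found, by Ensembl identifier, among 53379 genes of a count table from 480 single mouse lung cells. The cells were tdTomato-positive epithelial cells in 3 sets of 160, each from a lineage-tracing line with drug-inducible recombinases. BASCs-Tracer carries Sftpc-DreER and Scgba1a1-CreER, as the labels spell them, with the reporter R26-RSR-LSL-tdtomato. It marks cells that have had both the Sftpc-driven Dre and the Scgb1a1-driven Cre recombinase at work. The Scgb1a1-TD line (Scgba1a1-CreER;R26-tdtomato) needs the Scgb1a1-driven Cre alone, and Sftpc-TD (Sftpc-DreER;R26-RSR-tdtomato) the Sftpc-driven Dre alone. All 3 lines thus carry a tdTomato reporter and an inducible recombinase, and no set without them was included. For the inducing drug, its dose, the mice's age and how many animals were pooled, the sources used here give nothing.

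The labels also name a cell sub-type for each cell. BASCs are bronchioalveolar stem cells, which lie where the smallest airways open into the alveoli. AT2 are the surfactant-making alveolar type 2 cells, club cells are the secretory cells of the airway, and ciliated cells move its mucus. Line and sub-type together gave 10 groups. BASCs-Tracer held 138 BASCs, 15 club cells, 6 AT2 cells and 1 ciliated cell. Scgb1a1-TD held 97 club cells, 38 BASCs, 24 ciliated cells and 1 AT2 cell, and Sftpc-TD held 149 AT2 cells and 11 BASCs. The 8 groups of 5 or more cells were compared. How the sub-type was assigned is likewise unstated. Because no animal is named, each line counts as 1 sample. No difference below has a replicate check, and no test was made. Every cell sat in a well of 1 of 5 plates, and a difference is set beside the same difference between plates. Plates 1, 3 and 5 each held 1 line. Plate 2 held both BASCs-Tracer and Scgb1a1-TD cells and plate 4 both Scgb1a1-TD and Sftpc-TD cells, so on the other plates line and plate cannot be told apart.

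Immediate early genes need no new protein for their induction: kinases of the MAP kinase family can activate factors already bound at their promoters. Fos, Fosb, Jun and Junb encode subunits of the AP-1 transcription factor, Egr1 a zinc finger factor, and Atf3 a factor of the ATF/CREB family that follows many kinds of stress. Ier2 and Ier5 encode small nuclear proteins of one family, and Ier5 is also a target of heat shock factor 1. Hspa1a and Hspa1b encode near-identical inducible HSP70 chaperones, made when unfolded protein releases heat shock factor 1. Enzymatic digestion of a tissue can itself induce these genes, which is why they are commonly read as a handling signature. Here the tissue of all 3 lines went through collagenase, dispase and elastase before the sort. The part of digestion in the levels below was not tested.

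Across 480 cells, 492096494 reads were assigned to genes, from 3379 to 3781974 per cell with a median of 1000465. By line the median depth was 778327 reads (BASCs-Tracer), 1082395.5 (Scgb1a1-TD) and 1114748 (Sftpc-TD), and the median mitochondrial share 2.98%, 3.35% and 4.05%. No cell held counts identical to another's (0 of 480). Levels are given as CPM, the reads of a gene per 1000000 assigned reads, either of all reads of a group summed ("pooled") or cell by cell. Intervals, where given, are 95% and take reads, or cells where a share of cells is given, as independent draws. PCR-amplified reads without molecular identifiers are not independent molecules, and cells of 1 line are not replicates. The intervals therefore do not measure the uncertainty of a difference between lines. Marker lists set the club and ciliated groups apart, while BASCs and AT2 groups were less clearly separated. The summed level of 10 AT2 markers was 317496 to 403162 CPM in the AT2 and BASCs groups of all 3 lines, 49401 and 29728 CPM in BASCs-Tracer and Scgb1a1-TD club cells and 2961 CPM in Scgb1a1-TD ciliated cells. A list of 9 club markers reached 335070 CPM in Scgb1a1-TD and 189525 CPM in BASCs-Tracer club cells, and 2134 to 30402 CPM in the other groups. BASCs had the club list at 16753 CPM (BASCs-Tracer), 6075 (Scgb1a1-TD) and 10089 (Sftpc-TD), against 2134 in Sftpc-TD AT2. The 6 BASCs-Tracer AT2 cells, however, had Scgb1a1 at 3766 CPM, near the 3518 CPM of Scgb1a1-TD BASCs. Single club genes in Sftpc-TD BASCs against AT2 went several ways. Scgb1a1 was higher (8464 against 1285 CPM), Scgb3a2 level (10.02 and 9.82) and Aldh1a1 lower (5.09 against 22.49). The ciliated list reached 10581 CPM in ciliated cells and at most 105.4 CPM elsewhere. Leukocyte markers stood at 0.2 to 47.6 CPM except in Sftpc-TD BASCs, where 1 cell brought them to 315.7 CPM.

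Positions are those of GRCm38. The Fos gene (ENSMUSG00000021250) spans chr12:85473890-85477273 on the plus strand, and Fosb (ENSMUSG00000003545) chr7:19302696-19310051, Jun (ENSMUSG00000052684) chr4:95049034-95052222, Junb (ENSMUSG00000052837) chr8:84974484-84978718 and Ier2 (ENSMUSG00000053560) chr8:84661331-84662852, all on the minus strand. Egr1 is ENSMUSG00000038418. Atf3 (ENSMUSG00000026628, chr1:191170296-191218039) and Ier5 (ENSMUSG00000056708, chr1:155096361-155099636) share chromosome 1, both on the minus strand. The heat shock pair lies side by side on the minus strand of chromosome 17, Hspa1b (ENSMUSG00000090877) at chr17:34956436-34959238 and Hspa1a (ENSMUSG00000091971) at chr17:34969190-34972156. Exons of Jun overlap the antisense gene Junos over 232 bases and those of Junb overlap Prdx2 over 173 bases, on the opposite strand. Gm20481, which shares 564 exon bases with Hspa1a, had 0 reads. Whether counting used strand is not stated, so reads in these overlaps cannot be assigned to one gene with certainty.

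The promoters are shown because some members share short motifs, and because Hspa1a and Hspa1b can hardly be told apart by sequence. The 250 bases before the start site are from RefSeq (GRCm38.p6), which gave a promoter for 8 of the 10 members. All are written 5' to 3' on the strand of the gene. Capitals mark, on either strand, TGACGT (the core of the cAMP response element), GAANNTTC (the inner repeat of a heat shock element) and CCAAT (the box bound by NF-Y). For Atf3 the entry belongs to a start site inside the annotated gene. The windows are Fos chr12:85473640-85473889, Atf3 chr1:191183334-191183583, Ier5 chr1:155099637-155099886, Hspa1a chr17:34972157-34972406 and Hspa1b chr17:34959239-34959488.
Fos: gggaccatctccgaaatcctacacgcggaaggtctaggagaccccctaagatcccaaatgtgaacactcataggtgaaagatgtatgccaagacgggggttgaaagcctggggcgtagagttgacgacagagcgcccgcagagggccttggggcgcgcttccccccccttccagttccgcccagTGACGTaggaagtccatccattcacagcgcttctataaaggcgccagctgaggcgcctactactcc
Atf3: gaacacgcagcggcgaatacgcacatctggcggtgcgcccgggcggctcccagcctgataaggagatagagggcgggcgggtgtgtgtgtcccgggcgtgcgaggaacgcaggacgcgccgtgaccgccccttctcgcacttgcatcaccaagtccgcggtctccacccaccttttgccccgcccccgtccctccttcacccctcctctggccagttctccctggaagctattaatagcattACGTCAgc
Ier5: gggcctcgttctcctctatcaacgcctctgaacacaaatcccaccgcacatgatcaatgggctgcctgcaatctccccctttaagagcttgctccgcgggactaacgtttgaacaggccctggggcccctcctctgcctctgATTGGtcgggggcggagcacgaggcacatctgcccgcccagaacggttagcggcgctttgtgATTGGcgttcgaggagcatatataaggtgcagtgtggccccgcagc
Hspa1a: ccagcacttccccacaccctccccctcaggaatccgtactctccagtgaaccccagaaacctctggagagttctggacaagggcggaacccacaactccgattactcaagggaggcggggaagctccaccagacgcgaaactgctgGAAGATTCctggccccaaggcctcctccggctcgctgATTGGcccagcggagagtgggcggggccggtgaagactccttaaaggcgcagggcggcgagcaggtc
Hspa1b: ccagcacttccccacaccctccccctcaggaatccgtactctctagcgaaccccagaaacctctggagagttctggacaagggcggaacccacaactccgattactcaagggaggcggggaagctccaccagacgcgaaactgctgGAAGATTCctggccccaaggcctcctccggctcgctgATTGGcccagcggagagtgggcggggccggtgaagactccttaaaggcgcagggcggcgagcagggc

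Counted as the first base of the match from the start site, the TGACGT core lay at -66 in Fos and at -8 in Atf3. GAANNTTC lay at -104 in both heat shock genes and at -128 in Jun, and a CCAAT box at -67 in both heat shock genes, at -108 and -46 in Ier5, at -65 in Jun and at -36 in Junb. The EGR site GCGGGGGCG lay at -50 in Fosb. None of the 8 members searched had the full cAMP response element TGACGTCA, the AP-1 site TGACTCA or the CArG box in this window. Of 32851 RefSeq promoters, TGACGT was in 6.47%, GAANNTTC in 6.69%, CCAAT in 33.8%, GCGGGGGCG in 2.57%, TGACGTCA (which contains TGACGT) in 1.55%, TGACTCA in 4.46% and the CArG box in 1.47%. A match describes letters only. The windows of Hspa1a and Hspa1b shared 247 of 250 bases, with a longest identical run of 201. Their transcripts were also alike: 58.8% of the 50-base windows of Hspa1a, and 62.3% of those of Hspa1b, occur in the other copy. The division of reads between these copies is therefore uncertain wherever it is given below.

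Fos was the most abundant member in all 8 groups when CPM were divided by the kilobases of exon. It ran from 1017 CPM per kilobase in Sftpc-TD AT2 to 2892 in Scgb1a1-TD ciliated cells. On the same scale Ier2 came next in 6 groups (321 to 1507). The exceptions were Sftpc-TD AT2, where Jun was second (449), and BASCs-Tracer AT2, where Atf3 (693) and Jun (647) stood above Ier2 (631). Jun, Egr1, Atf3 and Junb followed, in an order that changed between groups, and Fosb was seventh in every group at 57.01 to 238. Ier5 (11.6 to 54.8) and the heat shock genes Hspa1a (0.67 to 32.1) and Hspa1b (0.58 to 15.5) were the lowest 3 throughout. In the sum over all cells Fos ranked 24th of all genes by reads, Egr1 43rd, Jun 54th, Ier2 95th, Atf3 104th, Junb 115th and Fosb 144th. Ier5 ranked 1367th, Hspa1a 2309th and Hspa1b 5780th. The 8 immediate early members together took 0.973% of reads in BASCs-Tracer BASCs, 0.954% in BASCs-Tracer club cells, 0.623% in Scgb1a1-TD BASCs, 0.661% in Scgb1a1-TD club cells, 0.780% in Sftpc-TD AT2 and 1.66% in ciliated cells.

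**Figure D1:**
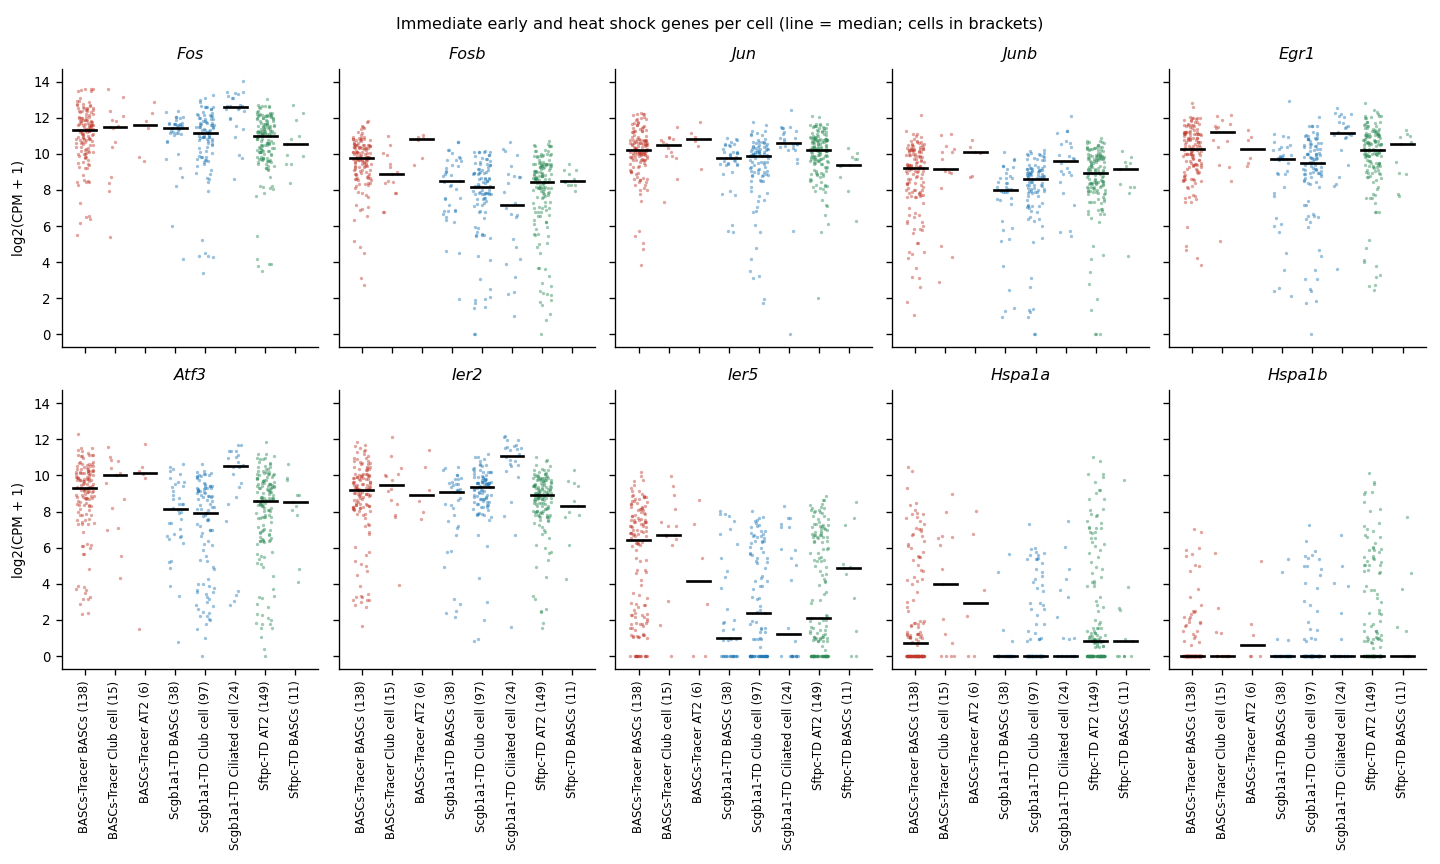
Level of each of the 10 members as log2(CPM + 1) in each cell (points) of the 8 groups of 5 or more cells, with the median as a line and the number of cells in brackets. The 7 abundant immediate early genes have a high median in every group, Ier5 is higher in BASCs and club cells of BASCs-Tracer than in those of Scgb1a1-TD, and many cells have no read of Hspa1a or Hspa1b.

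Reads of the 7 abundant immediate early genes were found in nearly every cell, from 475 of 480 cells for Junb to 480 of 480 for Fos and Ier2, but the amount per cell ranged widely inside each group. The level of Fos in BASCs-Tracer BASCs ran from 44.68 CPM in the lowest of 138 cells through a median of 2520 to 12322 in the highest. In Scgb1a1-TD BASCs it ran from 17.06 through 2768 to 5237 CPM (38 cells), in Scgb1a1-TD club cells from 9.523 through 2292 to 9911 (97 cells) and in Sftpc-TD AT2 from 10.31 through 2031 to 8504 (149 cells). The Fos ranges of these groups overlap almost wholly. Ciliated cells were higher, from 388.8 through 6086 to 16447 CPM (24 cells).

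Egr1 likewise ran from 13.38 through a median of 1219 to 7130 CPM in BASCs-Tracer BASCs, from 3.426 through 843.3 to 7697 in Scgb1a1-TD BASCs and from 4.596 through 1188 to 7067 in Sftpc-TD AT2. Its level in Scgb1a1-TD club cells ran from 0 through 722.9 to 4231 CPM, and in BASCs-Tracer club cells from 35.17 through 2355 to 4611. The 2 AP-1 partners of Fos named Jun and Junb showed the same breadth. Jun had medians of 1162 CPM in BASCs-Tracer BASCs, 879.8 in Scgb1a1-TD BASCs, 922.7 in Scgb1a1-TD club cells, 1182 in Sftpc-TD AT2 and 1568 in ciliated cells. Junb had medians of 585.5, 255.9, 384.5, 496.3 and 777.7 CPM in the same groups.

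Most of the variance of log2(CPM + 1) lay among cells of the same line, sub-type and plate: from 81.8% for Fosb to 94.3% for Fos. Which line a cell came from accounted, taken alone, for 14.3% of the variance of Fosb, 9.20% of that of Ier5, 7.48% of that of Hspa1b and 1.19% of that of Fos. Plate taken alone accounted for 14.4% in Fosb, 7.68% in Ier5, 6.58% in Hspa1b and 1.83% in Fos. Plates 1, 3 and 5 held 1 line each, so line and plate cannot be told apart in these shares. Within one sub-type and plate, line added 0.49% for Fosb, 1.93% for Ier5 and 0.38% for Hspa1b. Plates 1, 3 and 5 could add nothing to this share, so the layout keeps it small and it does not measure the size of a line difference. Within one line and sub-type, plate added 1.92%, 1.07% and 1.53%.

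Pooled Ier5 was higher in BASCs and club cells of BASCs-Tracer than in those of Scgb1a1-TD, on both BASCs-Tracer plates. Other members, among them Fosb and Hspa1a, were also higher in both sub-types when plates were pooled. Its pooled level was 179.7 CPM in BASCs-Tracer BASCs (counting interval 177.1 to 182.2) and 151.7 in BASCs-Tracer club cells (145.4 to 158.2). In Scgb1a1-TD it stood at 38.14 CPM in BASCs, 40.98 in club cells and 55.66 in ciliated cells, and in Sftpc-TD at 66.18 in AT2 and 73.35 in BASCs. Cell by cell, Ier5 ran from 0 through a median of 84.19 to 1162 CPM in BASCs-Tracer BASCs, against 0 through 0.9677 to 261.8 in Scgb1a1-TD BASCs and 0 through 3.374 to 460.1 in Sftpc-TD AT2. The ranges overlap, and the difference lies in how many cells were high. At 50 CPM or more stood 77 of 138 BASCs-Tracer BASCs (55.8%) and 12 of 15 BASCs-Tracer club cells (80%), but 8 of 38 Scgb1a1-TD BASCs (21.1%), 27 of 97 Scgb1a1-TD club cells (27.8%), 8 of 24 ciliated cells (33.3%) and 52 of 149 Sftpc-TD AT2 cells (34.9%). The small groups had 2 of 6 BASCs-Tracer AT2 cells (33.3%) and 3 of 11 Sftpc-TD BASCs (27.3%) at that level.

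By plate, the pooled level of Ier5 in BASCs-Tracer BASCs was 169.5 CPM on plate 1 and 196.5 on plate 2, with 55.3% and 56.6% of cells at 50 CPM or more. Scgb1a1-TD BASCs stood at 34.52 CPM on plate 2 (5 cells), 37.75 on plate 3 and 39.51 on plate 4, so the pooled levels of the lines did not overlap by plate. At 50 CPM or more stood 40%, 17.4% and 20% of these cells on plates 2, 3 and 4. Club cells behaved alike, with 135.2 and 160.4 CPM on the BASCs-Tracer plates against 24.92, 39.84 and 59.90 on plates 2, 3 and 4 of Scgb1a1-TD. The level within Scgb1a1-TD ciliated cells was less even, at 28.38, 33.46 and 110.9 CPM on plates 2, 3 and 4. On plate 4, 4 of 6 ciliated cells (66.7%) had 50 CPM or more, within the range of the BASCs-Tracer groups. With every cell thinned to 100000 reads, 10 or more reads of Ier5 were left in 46.6% of BASCs-Tracer BASCs (exact interval 37.9 to 55.5%), 13.5% of Scgb1a1-TD BASCs (4.54 to 28.8%), 69.2% of BASCs-Tracer club cells (38.6 to 90.9%), 13.8% of Scgb1a1-TD club cells (7.57 to 22.5%) and 26.4% of Sftpc-TD AT2 (19.5 to 34.2%). Depth was lower in BASCs-Tracer and thinning left out 12 cells in all, 7 of them from that line.

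**Figure D2:**
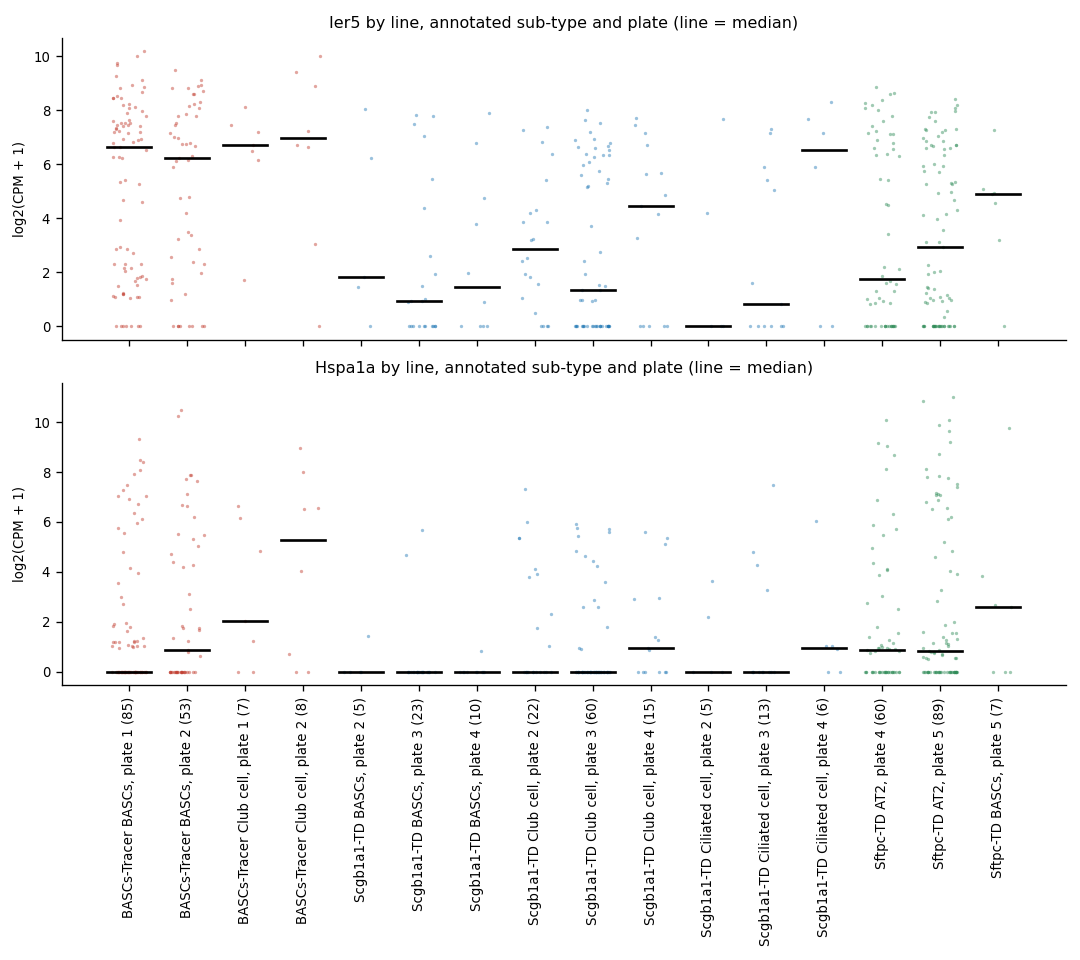
Ier5 and Hspa1a as log2(CPM + 1) in each cell (points), by line, sub-type and plate, with the median as a line and the number of cells in brackets. The median of Ier5 is 74.01 to 126.4 CPM on the BASCs-Tracer plates and 0.9015 to 20.78 CPM in Scgb1a1-TD BASCs and club cells. Scgb1a1-TD ciliated cells on plate 4 have a median of 99.84 CPM.

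Between lines, members were compared as the log2 ratio of pooled CPM with 1 CPM added, a difference counting as called at 2-fold or more where either group had 5 CPM or more. BASCs of BASCs-Tracer were higher than BASCs of Scgb1a1-TD for all 10 members. At 2-fold or more lay 4 of the 9 measured members, Hspa1a, Ier5, Junb and Fosb, against a background of 31.4% of all measured genes and a median log2 ratio over all genes of 0.18. With so few members this share is near the background and is not read as particular to them.

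The log2 ratio of Ier5 in BASCs was 2.21 (4.62-fold), from 2.07 to 2.47 over the 6 pairs of plates. For Hspa1a it was 4.35, from 60.04 against 1.987 CPM, and it was above 0 for 6 of 6 plate pairs. The Scgb1a1-TD value rested on 79 reads, 67.1% of them in 1 cell, and 19 of 138 BASCs-Tracer cells but 0 of 38 Scgb1a1-TD cells had 100 CPM or more. Among the AP-1 genes the log2 ratio was 1.21 for Junb (0.23 to 1.64 over plate pairs), 1.04 for Fosb (0.57 to 1.55), 0.75 for Jun and 0.23 for Fos. Junb fell to 0.60 and Fosb to 0.70 without plate 1. The remaining log2 ratios were 0.97 for Atf3, 0.82 for Egr1, 0.57 for Ier2 and 0.68 for Hspa1b, the last at 3.218 against 1.635 CPM, below the level limit in both groups.

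On plate 2, which held cells of both lines, 5 of 9 measured members were 2-fold or more higher in BASCs-Tracer BASCs. The background was 65.7%, with only 5 Scgb1a1-TD BASCs on that plate. There the log2 ratio was 2.47 for Ier5, 1.83 for Atf3, 1.54 for Egr1 and 1.05 for Ier2. It was 0.69 for Fosb and 0.23 for Junb, and below 0 for Fos (-0.14) and Jun (-0.15). Hspa1a stood at 94.54 CPM against 0.523 CPM, the latter from 1 read.

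Club cells gave a similar order of members. BASCs-Tracer club cells were 2-fold or more above Scgb1a1-TD club cells for 4 of 10 members, against a background of 50.2% and an all-gene median of -0.07, so the share was below the background. The log2 ratio was 2.16 for Hspa1a, 1.86 for Ier5 (1.16 to 2.64 over 6 plate pairs), 1.18 for Egr1 (0.98 to 1.54) and 1.16 for Atf3 (0.46 to 2.51). It was 0.79 for Fosb and for Junb, 0.42 for Ier2, 0.26 for Jun, 0.06 for Fos and -0.15 for Hspa1b. With only 15 BASCs-Tracer club cells single cells weigh much. Leaving out of each group the cell with most reads of the member brought Hspa1a to 1.48, Ier5 to 1.5, Ier2 to -0.20 and Hspa1b to -2.02.

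Within plate 2, 5 of 10 members were 2-fold or more higher in BASCs-Tracer club cells (8 cells) than in Scgb1a1-TD club cells (22 cells), against a background of 67.2%. These were Ier5 at 2.64, Hspa1b at 1.72, Hspa1a at 1.63, Atf3 at 1.55 and Egr1 at 1.06. Fos (-0.04), Fosb (-0.02), Jun (-0.06) and Junb (-0.12) were slightly lower there, so 4 of the 8 immediate early members were above 0 on the shared plate against 8 of 8 over all plates. The Hspa1b value rested on 1 cell and was -0.38 without the top cell of each group, and Egr1 was then 0.84.

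Sftpc-TD AT2 cells shared the alveolar markers of BASCs-Tracer BASCs, and fewer genes differed between these groups (19.1% of measured genes at 2-fold or more, all-gene median 0.01). Members at 2-fold or more were 3 of 10: Ier5 and Fosb higher in BASCs-Tracer, with log2 ratios of 1.43 (1.18 to 1.64 over 4 plate pairs) and 1.07 (0.65 to 1.41), and Hspa1b lower, at -3.40 (-3.99 to -2.24). Fosb was 0.73 without plate 1 and 0.98 without plate 4. Atf3 was at 0.63 and Hspa1a at -0.66, with both signs among plate pairs. Over the 11 Sftpc-TD BASCs, BASCs-Tracer BASCs had 2 of 10 members higher and 1 lower at 2-fold or more. The background there was 53.9%, with an all-gene median of 0.35.

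Against the same Sftpc-TD AT2 cells, Scgb1a1-TD club cells differed at 2-fold or more in 2 of 10 members, the heat shock genes, against a background of 35.3% and an all-gene median of -0.04. Hspa1a was at -3.26 (9.077 against 95.33 CPM) and Hspa1b at -2.71 (5.784 against 43.39 CPM), both negative in 6 of 6 plate pairs. On plate 4, which held both groups, the values were -2.37 and -2.74, again 2 of 10 members against a background of 49.9%. Ier5 was at -0.68 over all plates and -0.30 on plate 4.

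**Figure D3:**
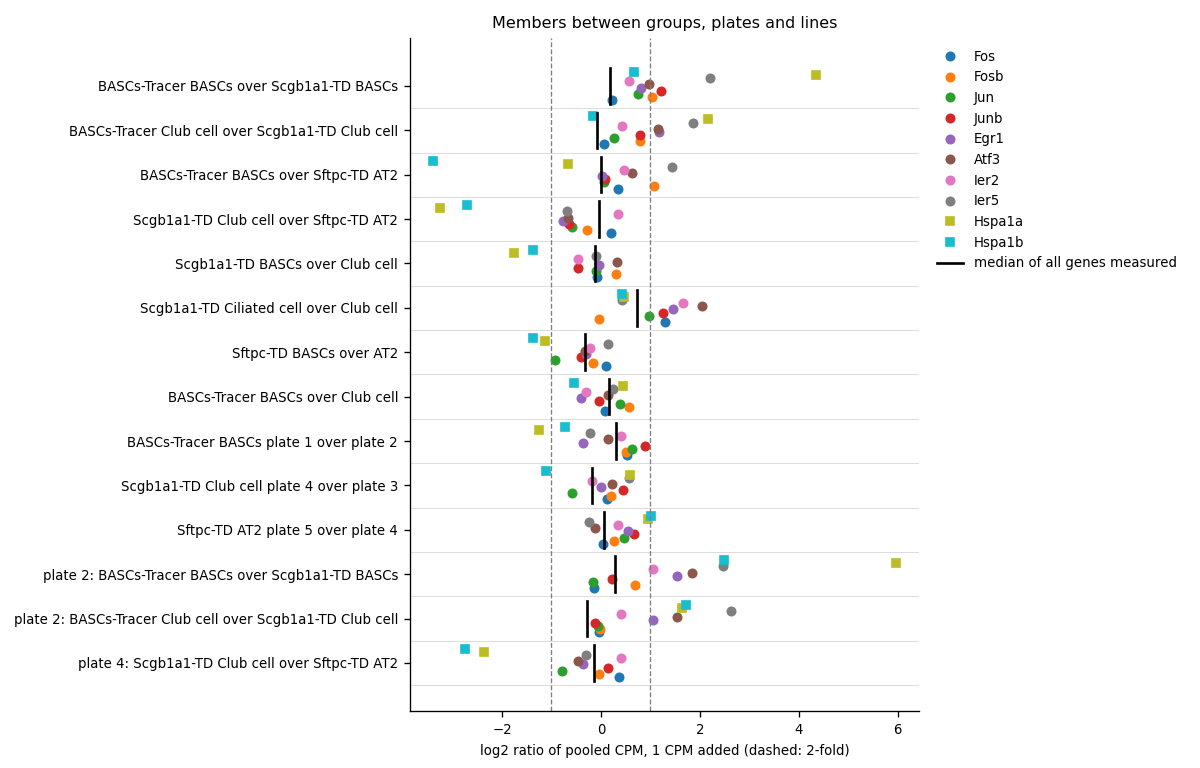
Log2 ratio of pooled CPM (1 CPM added) of each member in the compared pairs of groups, with dashed lines at 2-fold and the median of all measured genes as a bar. Ier5 lies at 1.43 to 2.64 in each pair drawn with BASCs-Tracer cells over cells of another line. The pair with Sftpc-TD BASCs is not drawn. The heat shock genes lie on both sides, some from very few reads (Hspa1a and Hspa1b on plate 2).

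Ciliated cells of Scgb1a1-TD had the highest pooled Fos, Egr1, Atf3 and Ier2 of the groups compared, though for Atf3 the 6 BASCs-Tracer AT2 cells were close (1493 against 1514 CPM). Compared with club cells of the same line, 5 of 10 members were 2-fold or more higher, against a background of 57.9%. The log2 ratio was 2.03 for Atf3 (369 to 1514 CPM), 1.66 for Ier2 (726.4 to 2293), 1.46 for Egr1 (970.5 to 2673), 1.30 for Fos (2758 to 6802) and 1.25 for Junb (429.1 to 1022). Jun was at 0.98, and these 6 were above 0 in 9 of 9 plate pairs. Fosb was the AP-1 gene without such a difference, at -0.03 (355.9 against 363.2 CPM). Ier5, Hspa1a and Hspa1b were at 0.43 to 0.46, with both signs among plate pairs.

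The ciliated ratios need their scale beside them. The median over all measured genes was itself 0.74, and 9 club markers took 335070 CPM of the club cells' reads. The part of these abundant transcripts in the ratios was not tested. Scaled by the median of ratios in place of totals, Atf3 and Ier2 stayed at 2-fold or more, and Egr1 fell to 0.88, Fos to 0.72 and Junb to 0.67. Cell by cell, the immediate early score, the mean of log2(CPM + 1) over the 8 immediate early members, had a median of 9.46 in ciliated and 8.18 in club cells, a difference of 1.28. In the other groups its median was 9.13 in BASCs-Tracer BASCs, 9.49 in BASCs-Tracer club cells, 7.98 in Scgb1a1-TD BASCs, 8.54 in Sftpc-TD AT2 and 8.34 in Sftpc-TD BASCs. The score of BASCs-Tracer cells thus exceeded that of Scgb1a1-TD cells by 1.15 in BASCs and 1.31 in club cells. BASCs-Tracer BASCs exceeded Sftpc-TD AT2 by 0.59. Ier5 is 1 of the 8 genes, with medians of 84.19 against 0.9677 CPM in BASCs and 104.4 against 4.298 in club cells. Its part in these score differences was not tested. In BASCs the difference was 0.43 when the 8 genes' CPM were summed before taking the logarithm, a sum that Fos leads.

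Within a line, BASCs and their neighbours differed little in the immediate early genes. In BASCs-Tracer, BASCs and club cells differed by 2-fold or more in 0 of 10 members, while 52.8% of measured genes did (all-gene median 0.17). Ier5 was at 0.24 and Fosb at 0.56. The heat shock genes depended on single cells here: Hspa1a moved from 0.44 to 1.07 and Hspa1b from -0.53 to 1.32 without the top cell of each group.

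In Scgb1a1-TD, BASCs and club cells differed in 2 of 10 members against a background of 41.9% (all-gene median -0.12). These were Hspa1a at -1.75 (1.987 against 9.077 CPM) and Hspa1b at -1.36 (1.635 against 5.784 CPM), both at low levels. Ier5 was at -0.10, with both signs among 9 plate pairs, and the immediate early score of BASCs was 0.21 below that of club cells. In Sftpc-TD, 11 BASCs differed from AT2 cells in 2 of 10 members against a background of 51.9% (all-gene median -0.33), Hspa1a at -1.14 and Hspa1b at -1.37. Of the Hspa1a reads of these BASCs 95.2% came from 1 cell, and without the top cells the values were -4.62 and -2.18. Jun was at -0.93.

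Plates of one line and sub-type also differed in the members. BASCs-Tracer BASCs on plates 1 and 2 differed in 1 of 9 measured members, Hspa1a at -1.25, against a background of 37.9% (all-gene median 0.31), with Junb next at 0.89, Jun at 0.63, Fos at 0.53 and Ier5 at -0.21. Scgb1a1-TD club cells on plates 4 and 3 differed in 1 of 10, Hspa1b at -1.10, against 34.0% (all-gene median -0.19), with Jun at -0.59 and Ier5 at 0.58. On plates 2 and 3 they differed in 2 of 10 against 36.6%, and on plates 2 and 4 in 2 of 9 against 43.5%. Scgb1a1-TD BASCs on plates 3 and 4 differed in 0 of 8 against 54.9%. Sftpc-TD AT2 cells on plates 5 and 4 differed in 1 of 10, Hspa1b at 1.02, against 24.0% (all-gene median 0.07), with Hspa1a at 0.95 and Ier5 at -0.25. For Fos the plate difference of 0.53 exceeded its difference between BASCs-Tracer and Scgb1a1-TD in BASCs (0.23) and club cells (0.06), and for Junb 1.21 between lines in BASCs stood beside 0.89 between plates. Ier5 also differed between some plates of Scgb1a1-TD, at -1.23 for club cells on plate 2 over plate 4 and from 28.38 to 110.9 CPM in ciliated cells. Its pooled plate levels in BASCs and club cells of BASCs-Tracer nevertheless did not overlap those of Scgb1a1-TD in the same sub-type.

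Heat shock transcripts were absent from many cells and abundant in few. Neither copy had a read in 67 of 160 BASCs-Tracer cells, 99 of 160 Scgb1a1-TD cells and 48 of 160 Sftpc-TD cells. Hspa1a reached 100 CPM or more in 23, 2 and 26 cells of the same lines. Its highest value was 2061 CPM in a Sftpc-TD AT2 cell, 1444 CPM in a BASCs-Tracer BASC and 178.5 CPM in a Scgb1a1-TD ciliated cell, while the median cell had 0.9598, 0 and 0.8128 CPM in the 3 lines. After thinning to 100000 reads, 10 or more reads of Hspa1a were left in 12.8% of BASCs-Tracer BASCs (exact interval 7.63 to 19.7%) and 17.6% of Sftpc-TD AT2 (11.8 to 24.7%), against 1.06% of Scgb1a1-TD club cells (0.027 to 5.79%) and 0 of 37 Scgb1a1-TD BASCs, an interval that reaches 9.49%.

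The division between the copies differed by line. Hspa1a had 7365 reads and Hspa1b 456 in BASCs-Tracer, a ratio of 16.2, against 1245 and 807 in Scgb1a1-TD (1.54) and 18856 and 8542 in Sftpc-TD (2.21). Among cells with 50 CPM or more of both copies together, the median share of Hspa1b was 1.39% in 40 BASCs-Tracer cells, 57.6% in 17 Scgb1a1-TD cells and 22.8% in 47 Sftpc-TD cells. Cells of one copy only were frequent in every line. Among the cells with 50 CPM or more, the share of Hspa1b was under 5% in 28, 5 and 18 and over 50% in 5, 10 and 17. Which animals these cells came from is not known, and whether the copies' sequence differs between the lines' genetic backgrounds was not tested.

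**Figure D4:**
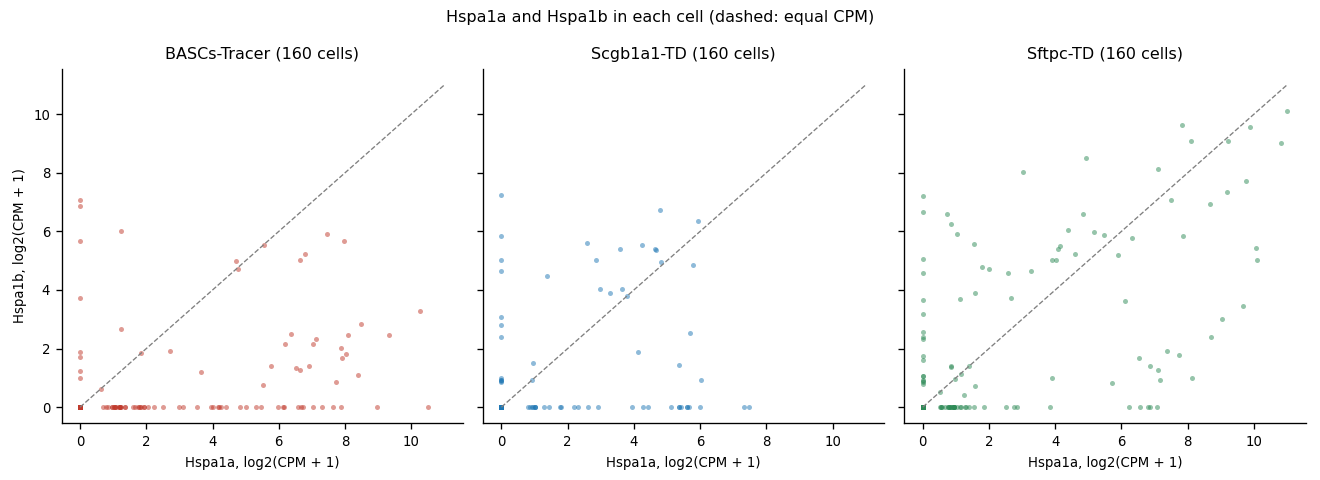
Hspa1b against Hspa1a, both as log2(CPM + 1), in each of 160 cells per line, with equal levels on the dashed line. In BASCs-Tracer most cells with the pair lie along the Hspa1a axis (28 of 40 with under 5% Hspa1b), whereas Sftpc-TD cells lie on both axes and between them.

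The immediate early genes other than Ier5 varied together from cell to cell. Correlations below are Spearman's, over the cells of one group, and are descriptions, since the cells share plates and scaling. In 138 BASCs-Tracer BASCs the median over the 21 pairs of the 7 genes was 0.39, from 0.13 to 0.61, with all 21 above 0. It was 0.26 in 38 Scgb1a1-TD BASCs, 0.52 in 24 ciliated cells, 0.36 in 97 Scgb1a1-TD club cells and 0.24 in 149 Sftpc-TD AT2 cells, with 20 of 21 pairs above 0 in Scgb1a1-TD BASCs and 21 of 21 in the other 3 groups. Jun stood closest to the mean of the other immediate early members in BASCs-Tracer BASCs (0.60), ahead of Fos (0.56), and Junb in Scgb1a1-TD club cells (0.57).

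Ier5 was less tied to them. Its median correlation with the 7 others was 0.07 in BASCs-Tracer BASCs, 0.16 in Scgb1a1-TD BASCs, 0.00 in ciliated cells, 0.16 in Scgb1a1-TD club cells and 0.01 in Sftpc-TD AT2. Hspa1a and Hspa1b were correlated at 0.39, 0.19, 0.37, 0.39 and 0.56 in the same groups. After thinning the value turned to -0.028 in Scgb1a1-TD BASCs and -0.041 in ciliated cells. The score of the 8 immediate early genes and the mean of the heat shock pair had correlations of 0.11, 0.06, 0.09, 0.11 and 0.04. Within plates this was uneven, at -0.18 and 0.41 for Scgb1a1-TD BASCs on plates 3 and 4 and at 0.52 for Scgb1a1-TD club cells on plate 4. Within plates the 7-gene median ran from 0.20 to 0.54, and in BASCs-Tracer BASCs it was 0.46 on plate 1 and 0.22 on plate 2. The immediate early score also rose with the number of genes detected in BASCs-Tracer BASCs (0.34), Scgb1a1-TD club cells (0.31) and Sftpc-TD AT2 (0.16), and its relation to depth was -0.01, 0.23 and 0.16. The part of detection in these correlations was not tested.

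Of 5880 genes with a read in at least 25% of the cells of BASCs-Tracer BASCs, Scgb1a1-TD club cells and Sftpc-TD AT2, those most like the immediate early score were ranked by their smallest correlation over these 3 groups. Zfp36, which encodes an mRNA-destabilising protein, came first (0.42, 0.50 and 0.42 in that order), then the antiproliferative gene Btg2 (0.41, 0.50 and 0.32), the nuclear RNA Neat1 (0.35, 0.43 and 0.32) and the orphan receptor gene Nr4a1 (0.30, 0.54 and 0.34). Ifrd1, Slc34a2, Klf5, Csrnp1 and Hbegf followed at 0.21 or 0.22 in the group where each was lowest. Over all 5880 genes the median correlation was 0.05, 0.07 and 0.02 and the 95th percentile 0.22, 0.26 and 0.17. For the heat shock score the genes most alike were Prkar2a (smallest value 0.22), Bloc1s6 (0.17), Dmxl1 (0.16), Nbeal1 (0.15) and Abraxas2 (0.14), low values against 95th percentiles of 0.16, 0.22 and 0.13.

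Other immediate early and primary response genes were compared between the same lines. Of 37 measured in BASCs, 17 were 2-fold or more higher in BASCs-Tracer than in Scgb1a1-TD and 0 lower, with a median log2 ratio of 0.92 against 0.18 over all genes and 31.4% called. Of the most abundant, the NF-kappaB inhibitor gene Nfkbia was at 1.55 (1471 against 502.4 CPM), the EGFR feedback inhibitor gene Errfi1 at 1.49, Klf6 at 1.18 and the phosphatase gene Dusp1 at 0.58. At 4-fold or more lay Csrnp1 (3.73), Plk3 (3.03), Myc (2.62), Gadd45b (2.58) and the AP-1 gene Fosl1 (2.26). In club cells 17 of 37 were again higher and 2 lower, with a median of 0.93 against -0.07, a share of calls close to the 50.2% of all genes. There Myc was at 5.27, Tnfaip3 at 2.98, Nfkbiz at 2.97, Nfkbia at 2.25 and Klf4 at 2.13, Errfi1 at 1.93, Dusp1 at 1.62 and Klf6 at 0.56, and Plk3 was at 0.138 against 7.76 CPM.

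Of 25 chaperone genes measured in BASCs, 7 were higher in BASCs-Tracer and 0 lower (median 0.78), a share below the 31.4% of all genes. They included Hspa8, which encodes the constitutive HSP70, at 1.25 (1662 against 697.3 CPM), the polyubiquitin gene Ubb at 1.13 and Hsph1 at 2.08. Hsp90aa1 stood at 0.95 and Hsp90ab1 at 0.55. In club cells 3 were higher and 4 lower (median 0.41, against 50.2% of all genes called), with Hsp90aa1 at 1.43, Hspa8 at 1.22, Ubb at 0.73, Hsp90ab1 at 0.44 and Hsph1 at -2.37. Metallothionein and glucocorticoid-responsive genes were higher for 5 of 7 in both sub-types, with 0 lower and medians of 1.14 and 1.65, where 31.4% of all genes were called in BASCs and 50.2% in club cells. Mt1 was at 1.14 in BASCs and 1.89 in club cells, Klf9 at 1.14 and 1.85, and Sgk1 at 1.40 and 0.09, and Zbtb16 at 2.44 in BASCs.

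The remaining lists were called no more often than all genes (31.4% in BASCs, 50.2% in club cells). Of 16 measured kinases and serum response factors 5 were higher in BASCs and 0 lower (median 0.27), with Elk3 at 2.88, Mapk3 at -0.20, Map2k1 at -0.76 and Map2k2 at -0.37. In club cells 0 of 13 were higher and 2 lower, Mapk8 at -4.20 and Mapk14 at -2.77. Genes of the unfolded protein and integrated stress responses were higher for 3 of 14 in BASCs and lower for 1, Chac1 at -2.80 (median 0.47), with Herpud1 at 1.23, Hspa5 at 0.59, Hsp90b1 at 0.34 and Dnajb9 at -0.02. In club cells 4 of 13 were higher and 1 lower (median 0.33), with Ddit3 at 2.68, Dnajb9 at 2.41, Ddit4 at 2.19 and Sdf2l1 at -2.73, and with Herpud1 at 0.74, Hsp90b1 at 0.33 and Hspa5 at 0.09. Among 12 constitutively expressed genes 2 were higher in BASCs and 1 in club cells, with a median of 0.41 in both. Actb stood at 1781 against 1059 CPM in BASCs and 3313 against 1647 CPM in club cells. The log2 ratios of Eef1a1, B2m and Rplp0 were 0.48, 0.47 and -0.01 in BASCs and 0.47, -0.04 and 0.35 in club cells.

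Against Sftpc-TD AT2, BASCs-Tracer BASCs showed less of this. Of 37 other immediate early genes 4 were 2-fold or more higher and 0 lower (median 0.32, background 19.1%), led by Fosl1 at 3.34 (21.81 against 1.259 CPM), while Dusp1 was at -0.24 and Nfkbia at 0.55. Of 25 chaperone genes 5 were higher and 0 lower (median 0.25), among them Hsf2, which encodes a heat shock factor, at 2.59. None of 8 measured metallothionein and glucocorticoid-responsive genes was called.

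In ciliated against club cells of Scgb1a1-TD the other immediate early genes split: 11 of 38 were higher and 10 lower, with a median of 0.05 against 0.74 over all genes, of which 57.9% were called. Among them the Egr1 relatives Egr3 (6.84, 207.4 against 0.8233 CPM) and Egr2 (3.45) and the factor gene Klf2 (3.32) were higher, with Dusp1 at 1.36 and Klf6 at 1.28. Sgk1 (-5.04), Myc (-3.62), Plk2 (-2.81), Cebpd (-2.50), Gadd45b (-2.26) and Klf4 (4.449 against 20.87 CPM) were lower, with Errfi1 at -1.73 and Nfkbia at -0.50. Chaperone genes were higher for 11 of 25 and lower for 3 (median 0.80), a share near that background, led by Hspa4l (4.22), Hsp90aa1 (3.33, 3975 against 394.6 CPM), Hsph1 (2.88) and Hsf1 (2.23), with Cryab at -4.63. Those genes belong to the list the inducible pair was set beside, and the pair itself was at 0.46 and 0.44.

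The 6 BASCs-Tracer AT2 cells are too few for more than their values. Fos ran from 765 through a median of 3139 to 7419 CPM, Fosb from 662.3 through 1819 to 2131 and Jun from 581.1 through 1828 to 3438. Ier5 was at 0 CPM in 2 of the 6 cells and reached 405.2 CPM in another. The pooled Fosb of these cells, 1487 CPM, was the highest of the 8 groups, ahead of BASCs-Tracer BASCs at 927 and BASCs-Tracer club cells at 627.4, with the other groups between 355.9 and 450.6. In pooled CPM all 3 BASCs-Tracer groups thus stood above all 5 groups of the other lines for Fosb and Ier5, and the cells overlapped. By cell this did not hold for Ier5 in BASCs-Tracer AT2. There 33.3% of cells had 50 CPM or more, against 34.9% in Sftpc-TD AT2. Its median was 24.22 CPM, against 28.65 CPM in Sftpc-TD BASCs. The single BASCs-Tracer ciliated cell had 1897 CPM of Fos and 1.818 of Ier5, and the single Scgb1a1-TD AT2 cell 4565 and 74.07.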

How the data were processed

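Counts of reads per gene in 480 single cells were used as the authors deposited them, 1 column per cell. Per the submitters' processing notes HISAT2, HTSeq and GRCm38 were used, with versions not given in the sources used here. Per the labels' protocols cells were lysed in NP40, reverse transcribed with SuperScript II, amplified by PCR with KAPA HiFi and made into Nextera XT libraries. Each column was matched to a cell by plate and well, and its line and sub-type are those of the labels.

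Python 3.11.15 with numpy 2.4.6, scipy 1.17.1, pandas 2.3.3 and matplotlib 3.10.9 was used. CPM were computed over all genes, pooled per group, and compared as log2 ratios with 1 CPM added, with a call at 2-fold where either group had 5 CPM or more. Thinning was to 100000 reads per cell, and presence was 10 reads. Plate pairs needed 5 cells on each side. Variance shares were of sums of squares. No count model or test was run, since each line is 1 sample, and no doublet caller was run. The ratio and correlation steps were tried on simulated counts with the cell numbers of the largest groups only. Small groups, and genes with most reads in 1 cell, were not simulated.

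The members and gene lists were chosen with earlier results of these data known. All members are named. Of each other list the 4 genes with the highest CPM over all cells are named, and those 4-fold or more apart, in 3 comparisons in full (BASCs and club cells between BASCs-Tracer and Scgb1a1-TD, and ciliated against club cells for the immediate early and chaperone lists). Some genes that this rule names are not reported here. In BASCs-Tracer BASCs against Sftpc-TD AT2 the 4-fold genes and examples are given. Alternatives were 10 CPM added, no filter on low genes, other scalings, the mean over cells, only deep cells, thinning, and plates left out or taken alone. Leaving out cells whose leukocyte markers summed to 50 CPM or more, and each member's top cell, were chosen after seeing the data.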

Additional observations from a re-analysis of the deposited data

Results flagged for a closer look

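In groups of 4 to 10 cells, 10 combinations of member and group were looked at for a cell far from the rest, and 2 were found, both in the 6 BASCs-Tracer AT2 cells. Chance marks about 1 in 20 such groups. For Atf3 the lowest cell had 1.839 CPM, and the next had 942.9. For Hspa1b the highest cell had 36.90 CPM, and the next had 2.478. Both cells were on plate 1. None of the ratios above uses this group.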

How the results depend on the processing

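No paired analysis was possible because no result comes from a test and the labels name no animals. Of 38 member ratios at 2-fold or more (1 of them below the level limit), 18 fell under 2-fold or turned in at least 1 alternative, in 42 of 347 alternatives; those of Ier5 did not. The only ratio that turned was Hspa1b in plate 2 club cells, at -0.20 as a mean over cells and -0.38 without top cells. The number of members called moved as follows. Between lines in club cells it was 2 with totals without mitochondrial and top genes or without plate 1, and 7 without plate 2. In plate 2 club cells it was 3 without top cells. For Scgb1a1-TD BASCs over club cells it was 0 with 10 CPM added and 1 without plate 3 or top cells. For ciliated over club cells it was 2 with median-of-ratios scaling or totals without top genes. For Sftpc-TD BASCs over AT2 it was 1 with 10 CPM added or as a mean over cells, and for BASCs-Tracer BASCs over club cells 1 without top cells. Between plates it was 3 as a mean over cells in BASCs-Tracer BASCs, 0 with 10 CPM or median-of-ratios scaling in Scgb1a1-TD club cells, and in Sftpc-TD AT2 0 with those or with totals without top genes and 2 as a mean over cells. The score difference in BASCs was 0.43 as the log2 of summed CPM. Hspa1a with Hspa1b correlated at -0.028 in Scgb1a1-TD BASCs and -0.041 in ciliated cells after thinning, and within plate 2 at 0.16 in BASCs-Tracer BASCs and 0.11 in Scgb1a1-TD club cells. The 2 scores correlated at -0.18 on plate 3 and 0.41 on plate 4 in Scgb1a1-TD BASCs and at 0.52 on plate 4 in Scgb1a1-TD club cells, and Ier5 with the 7 others at 0.48 and 0.43 on plate 4 in these groups. The cause of these moves was not tested, and the plate 4 values rest on 10 and 15 cells. Leaving out cells with leukocyte markers brought Hspa1a in Sftpc-TD BASCs over AT2 to -4.94 and Hspa1b to -2.56. Hspa1b had no read in most cells, and what depth hides there was not tested.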
